A study of Homo sapiens with 8 samples.

Results

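The genes described here are 10 non-coding host genes of small nucleolar RNAs (snoRNAs): SNHG1, SNHG5, SNHG6, SNHG7, SNHG8, SNHG12, SNHG15, SNHG16, GAS5 and ZFAS1. They were taken by name, by a rule that did not use their measured levels, as spliced host transcripts known for translation-coupled decay. Earlier results of these data were known when that choice was made. The host genes are 10 of the 86369 gene identifiers in the deposited count table. Of these identifiers, 13840 had enough counts to be tested, and 9 of the 10 host genes were among them. SNHG15 was the exception. The cells were HepG2, an established human hepatocellular carcinoma line. They received by lipofection either a negative control siRNA (siControl) or an siRNA against NAT10 (siNAT10), the enzyme that acetylates cytidines in RNA, and were lysed for RNA after 2 days. There were 4 libraries per siRNA, with replicates 1 and 2 labelled batch 1 and replicates 3 and 4 batch 2. Nothing in the labels says whether replicates were separate cultures, so the p-values below measure the spread between these libraries, which may be technical.

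A snoRNA host gene carries snoRNA sequences in its introns. Splicing releases the introns, from which the snoRNAs are trimmed, and these then guide chemical modification of ribosomal RNA and other RNAs. Box C/D snoRNAs guide methylation of the ribose, and box H/ACA snoRNAs guide conversion of uridine to pseudouridine. The exons, joined to each other, leave the nucleus with no long reading frame. Ribosomes that enter such an RNA soon meet a stop codon, and exon junctions beyond that stop are a classical trigger of nonsense-mediated decay, which depends on the helicase UPF1. The level of these spliced RNAs is therefore known to rise when translation or this decay is blocked. Many host transcripts also begin, as ribosomal protein mRNAs do, with a C followed by a run of pyrimidines, the 5′ terminal oligopyrimidine (TOP) tract through which mTOR signalling controls translation.

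The annotated starts were read first, because the TOP tract ties these genes to translation. The following windows hold 20 bases before and 40 bases from the start given by RefSeq on GRCh38.p14. Capitals mark the run of C and T that begins with a C at the first transcribed base, or the first base alone where it is not a C. ZFAS1 (chr20:49278622-49278681, plus strand), SNHG5 (chr6:85678694-85678753, minus strand) and SNHG12 (chr1:28581834-28581893, minus strand) are shown as starts with a tract. SNHG8 (chr4:118278742-118278801, plus strand) and SNHG16 (chr17:76557744-76557803, plus strand) are shown as starts without one.
ZFAS1: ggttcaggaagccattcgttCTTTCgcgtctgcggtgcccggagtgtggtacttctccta
SNHG5: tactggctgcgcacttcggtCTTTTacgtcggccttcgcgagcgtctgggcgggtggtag
SNHG12: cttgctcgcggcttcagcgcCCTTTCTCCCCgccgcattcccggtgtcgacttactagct
SNHG8: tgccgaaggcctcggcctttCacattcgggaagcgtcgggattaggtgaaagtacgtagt
SNHG16: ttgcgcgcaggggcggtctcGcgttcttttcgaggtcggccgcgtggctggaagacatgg

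A C followed by at least 4 further pyrimidines began 3 of the 8 host genes whose starts were read from the RefSeq table (37.5%). They were ZFAS1, SNHG5 and SNHG12. Such a start was found in 4.07% of all 35116 genes in that table and in 13 of 23 ribosomal protein genes that host snoRNAs (56.52%). The first base was a C in 6 of the 8 host genes, against 14.7% of all genes. The run from that C was 4 bases long in SNHG7 and 3 in SNHG1. These counts depend on the annotation. RefSeq and the GENCODE 44 canonical transcript gave the same first base for ZFAS1 and SNHG7, and different ones for the other 6 of the 8. SNHG5 began 15 bases apart, with a G in GENCODE and so no tract, and SNHG12 began 1113 bases apart, with a run of 5 in GENCODE. The SNHG1 start was 37 bases apart and had a G in GENCODE, and neither annotation gave SNHG8 or SNHG16 a tract. GAS5 began with an A in RefSeq, and 1056 bases away, in the first exon of its GENCODE canonical transcript (chr1:173867960-173867989, minus strand), with a run of 6, shown here in capitals. By GENCODE, 3 of the 10 host transcripts had the tract: ZFAS1, SNHG12 and GAS5.
GAS5 first exon: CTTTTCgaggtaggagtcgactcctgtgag
A match to this pattern describes the annotated start only, and the libraries, which read the 3′ ends of RNAs, did not measure where transcripts begin.

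The first AUG of each host transcript opened a short reading frame with exon junctions far beyond its stop. In the GENCODE canonical transcripts these frames ran from 4 codons in SNHG15 to 68 codons in SNHG7, stop codon included. All 10 transcripts had at least 1 exon junction more than 50 bases after the stop. SNHG1 had 7 such junctions, SNHG5, SNHG12 and GAS5 had 5 each, and SNHG15 had 1. The frames also depend on the annotated start. In SNHG1 and SNHG12 the first AUG was at base 4 and base 114. Their RefSeq starts lie 37 and 1113 bases downstream of the GENCODE ones, past that AUG. The frames given for SNHG1 and SNHG12 therefore apply to the GENCODE starts only. The frames of ZFAS1 (26 codons, bases 100 to 177 of the spliced transcript) and SNHG5 (13 codons, bases 92 to 130) are shown with the start and stop codons in capitals, since these genes are followed through the measurements below.
ZFAS1 frame: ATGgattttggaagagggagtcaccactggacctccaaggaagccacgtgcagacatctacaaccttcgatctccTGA
SNHG5 frame: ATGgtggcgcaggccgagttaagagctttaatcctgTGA

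**Figure D1:**
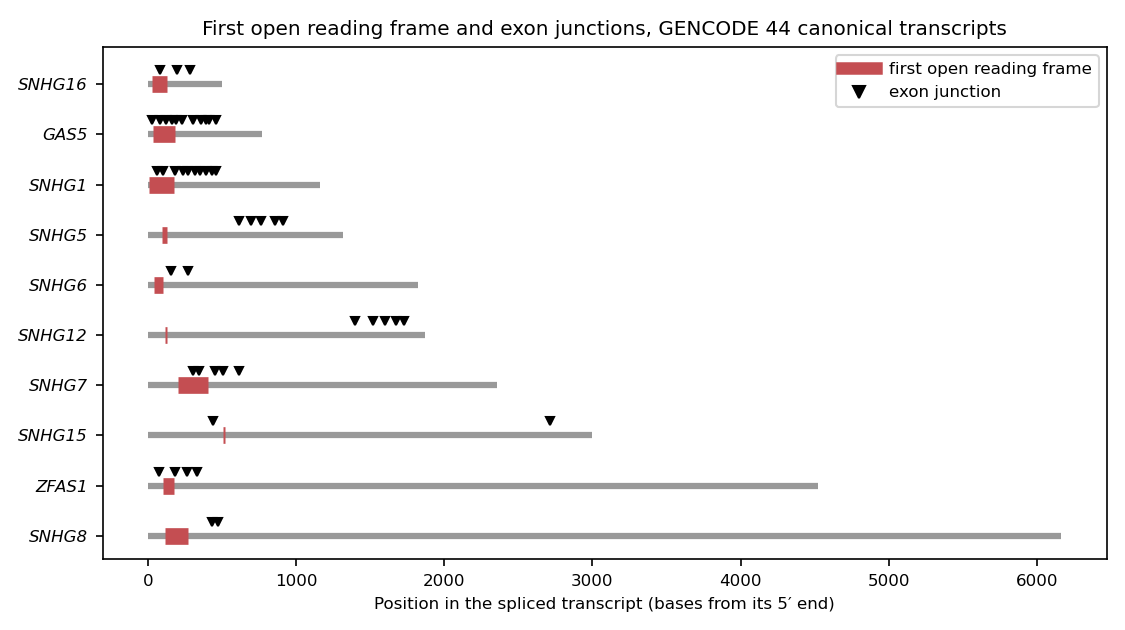
Spliced canonical transcripts of the 10 host genes drawn to scale in bases from the 5′ end, with the first reading frame and the exon junctions marked. Every transcript has a junction more than 50 bases after the stop of its first frame, and the frames hold between 4 and 68 codons.

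The libraries held between 9731718 and 27977110 counts each, and the 9 tested host genes had between 521 and 46987 counts in a library, so counting error was small beside the spread between libraries. Levels are given as CPM, which scales each library's counts to the same total after TMM normalization. Because each RNA gives reads from its 3′ end, CPM does not grow with transcript length. The target gene NAT10 (ENSG00000135372, chr11:34105617-34147670, plus strand) stood at 44.7, 39.2, 77.8 and 48.9 CPM in siControl replicates 1 to 4 and at 13.1, 12.2, 20.1 and 22.3 CPM in the siNAT10 libraries. The groups did not overlap, 31.6% of the control level was left, and an exact two-sided permutation test gave p = 0.029, the smallest that 4 against 4 allows. Hepatocyte markers were abundant, and their summed level was 9047 to 9626 CPM in siControl and 7116 to 7833 CPM in siNAT10. Of the 8 listed, 7 were tested and 1 fell in edgeR, the iron carrier TF (log2 fold change -0.49, adjusted p = 0.023). DESeq2 called 2 lower, TF and ALB. Of the 7 values, 6 were below 0, with a median log2 fold change of -0.30. An unadjusted p under 0.05 in edgeR was reached by 5 of the 7, 1 of these higher, beside 15.7% of all genes. Leukocyte markers summed to 416 to 567 and 339 to 397 CPM, most of it LYZ, which fell (log2 fold change -0.42, adjusted p = 0.043 in edgeR), while PTPRC and CD3E, which define leukocytes, were at 0. Endothelial markers (1 of 4 at 0) reached at most 0.796 CPM and fibroblast markers (3 of 5 at 0) at most 1.38 CPM. The TF call was lost without siControl replicate 1 or 3 or siNAT10 replicate 1, 2 or 3 (adjusted p from 0.053 to 0.091 in edgeR), and the LYZ call without any single library except siControl replicate 4 (0.074 to 0.17). The part of these marker differences in the host gene values was not tested. In bulk RNA, fewer cells of a kind and less RNA per cell cannot be told apart.

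None of the 9 tested host genes passed the test for a change with NAT10 knockdown, and the siControl and siNAT10 libraries overlapped for each of them. The share of all genes with such overlap was not counted. In edgeR's quasi-likelihood test with batch and siRNA as terms, 0 of 9 had an adjusted p under 0.05, against 2.28% of all genes tested (315 of 13840), and 0 of 9 had an unadjusted p under 0.05, against 15.7% of all genes (2173). DESeq2 also called 0 of the 9. Their adjusted p in edgeR lay between 0.41 and 0.98, with 6 log2 fold changes above 0 and 3 below. The median log2 fold change (siNAT10 over siControl) of the 9 was 0.055, beside -0.0024 over all genes, and the median size without sign was 0.11 beside 0.16. The 95% confidence intervals bound what could have gone unseen: the lowest bound was 0.708-fold, for SNHG12, and the highest 1.33-fold, for ZFAS1. The total of 315 called genes fell to 104, 132, 134, 75 and 178 without siControl replicate 1, siControl replicate 2, siNAT10 replicate 1, siNAT10 replicate 2 and siNAT10 replicate 3, and the host genes called stayed at 0 of 9 each time.

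**Figure D2:**
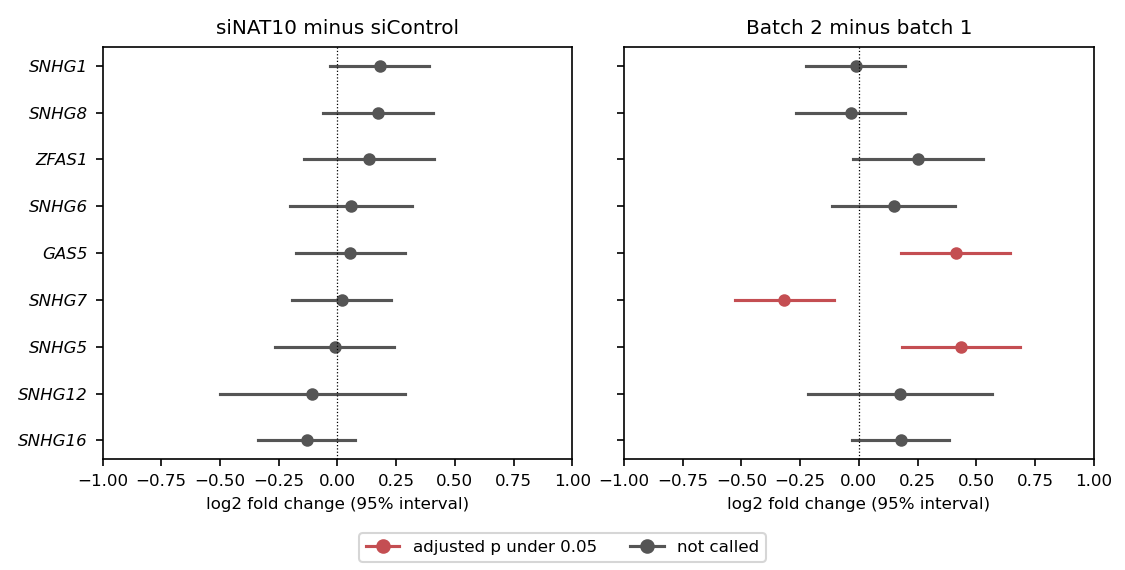
Fitted log2 fold changes of the 9 tested host genes with 95% confidence intervals from edgeR. The left panel is siNAT10 minus siControl and the right panel batch 2 minus batch 1. Every siRNA interval includes 0, and the siRNA values lie between -0.13 for SNHG16 and 0.18 for SNHG1. The batch intervals of GAS5, SNHG5 and SNHG7 exclude 0.

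ZFAS1 was the most counted of the 10 and made up 46.5% to 53.5% of their summed CPM in a library. ZFAS1 (ENSG00000177410, chr20:49278178-49299600, plus strand) lies antisense to the start of ZNFX1 and hosts the box C/D snoRNAs SNORD12, SNORD12B and SNORD12C. Its level was 1590.0, 1278, 2128 and 1651 CPM in siControl replicates 1 to 4 and 1851, 1633, 2134 and 1615 CPM in siNAT10 replicates 1 to 4. The highest libraries of both groups were replicates 3, within a few CPM of each other, and the groups overlapped over most of their range. The means were 1662 ± 351 and 1808 ± 242 CPM (SD, n = 4 each), and the log2 fold change was 0.13 (SE 0.13), with an adjusted p of 0.68 in edgeR.

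GAS5 (ENSG00000234741, chr1:173858559-173868882, minus strand) is the host for which control by translation and decay was classically described, first as a transcript that accumulates in growth-arrested cells. It is known to host several box C/D snoRNAs, although none was matched inside it in the annotation used here. GAS5 was measured at 61.0, 46.7, 68.9 and 67.2 CPM in siControl and at 49.9, 56.3, 69.8 and 79.6 CPM in siNAT10. The highest value belonged to siNAT10 replicate 4 and the lowest to siControl replicate 2, but the values between them were interleaved. The log2 fold change was 0.06 (SE 0.11) with an interval of -0.18 to 0.29, and the adjusted p from edgeR was 0.86.

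SNHG5 and SNHG12 have the other RefSeq starts with a tract shown above. SNHG5 (ENSG00000203875, chr6:85650491-85678932, minus strand), host of SNORD50B, was at 142, 128, 236 and 171 CPM in siControl and at 149.7, 149.6, 195 and 167 CPM in siNAT10. The siControl libraries held both the lowest and the highest value. The log2 fold change of SNHG5 was -0.012 (SE 0.12), with an adjusted p of 0.98 in edgeR.
SNHG12 (ENSG00000197989, chr1:28578538-28583132, minus strand), which hosts SNORD99, SNORA61, SNORA44 and SNORA16A, was at 72.2, 46.4, 101.9 and 54.7 CPM in siControl. In siNAT10 it was at 68.4, 60.8, 73.2 and 50.9 CPM, inside the siControl range throughout. Its log2 fold change of -0.11 (SE 0.19) had the widest interval of the 9, from -0.50 to 0.29, with an adjusted p of 0.84 in edgeR. Without siControl replicate 3, the highest library, the log2 fold change of SNHG12 was 0.15 and that of SNHG5 0.13. The last exon of SNHG12 also lies opposite an exon of TRNAU1AP, which had 259 to 794 counts per library beside 521 to 2174 for SNHG12. Whether counting used strand is not given in the sources used here, so reads of this pair cannot be told apart with certainty.

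SNHG1 and SNHG8 had the largest positive values. SNHG1 (ENSG00000255717, chr11:62851978-62855953, minus strand) hosts a row of box C/D snoRNAs that includes SNORD22 and SNORD25 to SNORD28. It was at 94.4, 106.2, 110.1 and 105.6 CPM in siControl and at 119, 127, 107 and 118 CPM in siNAT10. All siNAT10 libraries except replicate 3 lay above all siControl libraries. The means were 104 ± 6.73 and 118 ± 8.16 CPM (SD, n = 4 each). The log2 fold change was 0.18 (SE 0.099), with an adjusted p of 0.41 in edgeR, the lowest of the 9.
SNHG8 (ENSG00000269893, chr4:118278703-118285316, plus strand), host of the box H/ACA snoRNA SNORA24, was at 405, 331, 391 and 371 CPM in siControl and at 451, 428, 451 and 358 CPM in siNAT10. Replicates 1, 2 and 3 of siNAT10 were above every siControl library, and replicate 4 was below all siControl libraries but replicate 2. The log2 fold change of SNHG8 was 0.17 (SE 0.11), with an adjusted p of 0.49 in edgeR.

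SNHG6, SNHG7 and SNHG16 had values on both sides of 0. SNHG16 (ENSG00000163597, chr17:76557727-76670985, plus strand), host of SNORD1A, SNORD1B and SNORD1C, was at 176, 156, 209 and 186 CPM in siControl and at 155.5, 163, 167 and 175 CPM in siNAT10. Its siNAT10 values lay inside or just under the siControl range, and the log2 fold change was -0.13 (SE 0.097, adjusted p = 0.57 in edgeR).
SNHG7 (ENSG00000233016, chr9:136721366-136728184, minus strand), host of the H/ACA snoRNAs SNORA17A and SNORA17B, was at 346, 309, 286 and 285.5 CPM in siControl and at 366, 354, 254 and 278 CPM in siNAT10. Its siNAT10 libraries held both the highest and the lowest value, and the log2 fold change was 0.018 (SE 0.10, adjusted p = 0.96 in edgeR).
SNHG6 (ENSG00000245910, chr8:66920561-66926398, minus strand), host of SNORD87, was at 462, 349.5, 520.3 and 433 CPM in siControl and at 450.5, 445, 536 and 400.3 CPM in siNAT10. The groups overlapped, and the log2 fold change was 0.06 (SE 0.12, adjusted p = 0.87 in edgeR).

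**Figure D3:**
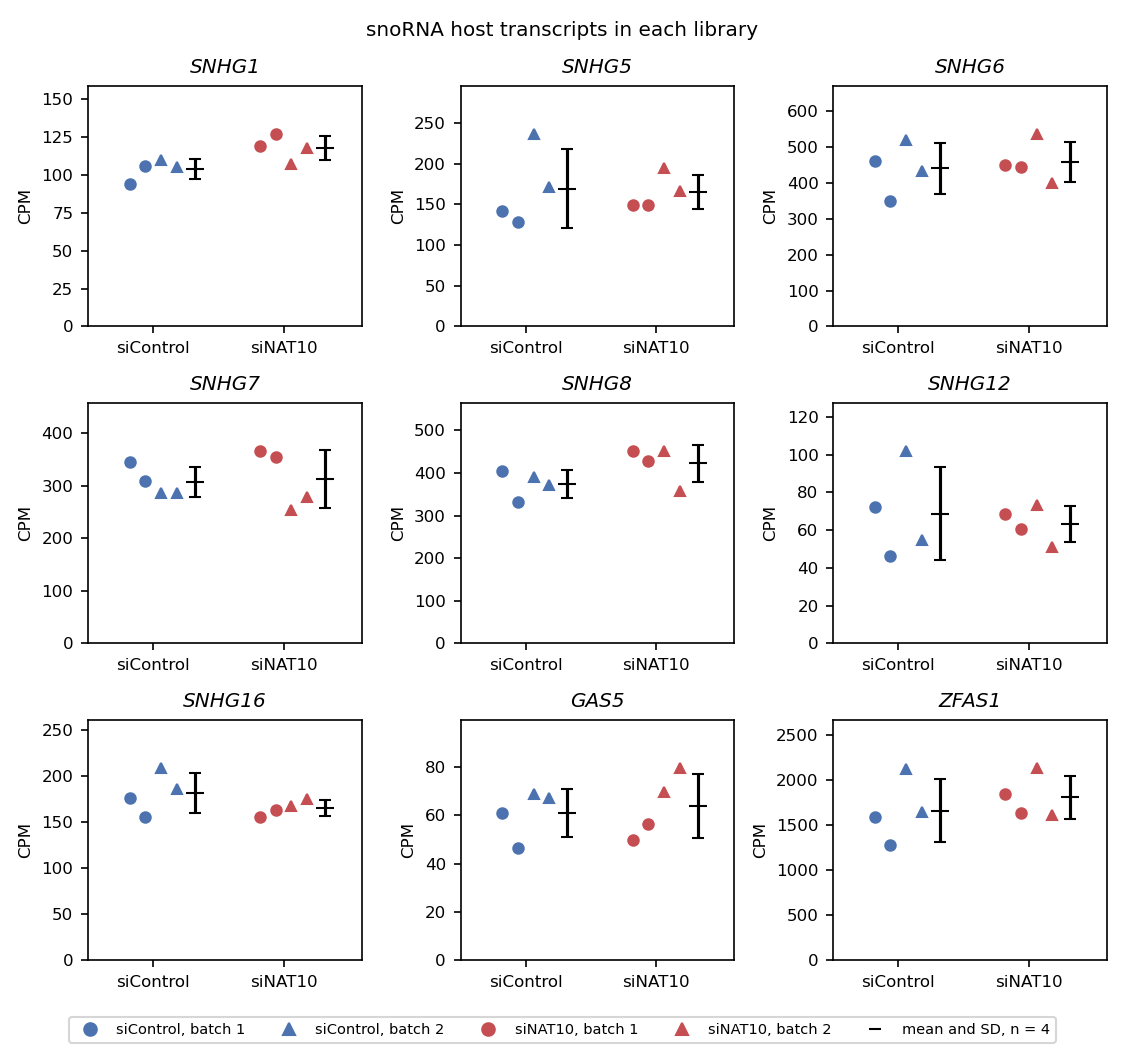
CPM of each tested host gene in all 8 libraries, by siRNA and batch, with group means shown. The siControl and siNAT10 points overlap for every gene, from siControl means of 61.0 CPM for GAS5 to 1662 CPM for ZFAS1.

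SNHG15 (ENSG00000232956, chr7:44983019-44986961, minus strand), host of SNORA9, could not be measured. It had 3, 1, 2 and 1 counts in siControl and 0, 2, 1 and 2 in siNAT10, at or under 3 counts in every library, so no fold change is given. EIF4A3, a core exon junction helicase that every cell uses, was listed at 0 in all 8 libraries of the same table, so a low count there is not a measure of absence. The snoRNAs themselves gave no values either. The annotation placed 26 snoRNA genes inside 9 of the host genes, 25 of them in introns and 1 over an exon. All 26 were rows of the table and 0 had a count in any library, while 116 of all 942 snoRNA rows had one. The libraries were primed on poly(A) tails, which mature snoRNAs lack. Why these 26 rows held no count was not tested. Host counts come from 3′ ends, so they do not show whether the RNA was spliced, nor the level of its snoRNAs.

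The batch difference of the host genes had a median size of 0.18 (log2, without sign), and that of all genes 0.26. Between batch 2 and batch 1, edgeR called 3 of the 9, of which GAS5 and SNHG5 were higher in batch 2 and SNHG7 was lower. The share of all genes called for batch was 25.3%, so 3 of 9 is near that background. GAS5 averaged 53.5 ± 6.42 CPM in batch 1 and 71.4 ± 5.58 CPM in batch 2 (SD, n = 4 libraries each), with all batch 2 libraries above all batch 1 libraries. Its log2 difference was 0.41 (SE 0.11, adjusted p = 0.011 in edgeR), and it was present under both siRNAs, from 53.9 to 68.1 CPM in siControl and from 53.1 to 74.7 CPM in siNAT10. SNHG5 averaged 142 CPM in batch 1 and 192 CPM in batch 2, again without overlap, with a log2 difference of 0.43 (SE 0.12, adjusted p = 0.014 in edgeR). SNHG7 went the other way, from 344 ± 24.4 to 276 ± 14.8 CPM, a log2 difference of -0.32 (SE 0.10, adjusted p = 0.028 in edgeR) and no overlap. How many of all genes lacked overlap between the batches was not counted.
The GAS5 call held with each library left out in turn. The SNHG5 call was lost without siControl replicate 2 (adjusted p = 0.060), and the SNHG7 call without siControl replicate 1 (0.072), siNAT10 replicate 1 (0.080), siNAT10 replicate 2 (0.082) or siNAT10 replicate 3 (0.12), all in edgeR. ZFAS1 was at 0.25 (adjusted p = 0.17) and was called without siNAT10 replicate 4 (log2 difference 0.36, adjusted p = 0.047 in edgeR).

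Within each batch the siRNA effect was also compared. In batch 1 alone the median log2 fold change of the 9 host genes was 0.14, and in batch 2 alone it was -0.024. The fitted values were 0.28 and -0.0098 for ZFAS1, 0.30 and 0.06 for SNHG1, 0.15 and -0.17 for SNHG5, and 0.12 and -0.34 for SNHG12, in that order of batches. GAS5 had the opposite order, -0.020 in batch 1 and 0.14 in batch 2. None of these differences between batches was called. The interaction of batch and siRNA in edgeR gave 0 of 9 host genes past the threshold and 0 of 9 at an unadjusted p under 0.05 (lowest 0.19), beside 0% of all genes called and 421 (3.04%) at an unadjusted p under 0.05. DESeq2 called 1 gene for this interaction, and it was none of the 9.

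Libraries of the same siRNA and batch also differed, and several host genes moved together there. The summed level of the 9 was 3348 CPM in siControl replicate 1 and 2751 in replicate 2, the latter the lowest of all libraries. The sum was 4051 in siControl replicate 3 and 3324 in replicate 4. In both siControl pairs the deeper library was the higher one, for 8 of 9 genes in batch 1 and 9 of 9 in batch 2. In siNAT10 the sums were 3662 and 3418 CPM in batch 1, where the shallower library was higher, and 3987 and 3242 CPM in batch 2. The deeper siNAT10 library was higher for 3 of 9 genes in batch 1 and 5 of 9 in batch 2. The part of depth in these differences was not tested.
The 8 libraries differ in batch and siRNA. Across them, Pearson's r of log2 CPM was positive for 24 of the 36 pairs of host genes, with a median of 0.25. SNHG6 and ZFAS1 were the most alike (r = 0.93), followed by SNHG6 and SNHG12 (0.88) and SNHG5 and ZFAS1 (0.85). SNHG7 ran opposite to GAS5 (r = -0.70) and SNHG5 (-0.63), which are the genes with opposite batch differences. These r describe 8 libraries and carry no test.

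**Figure D4:**
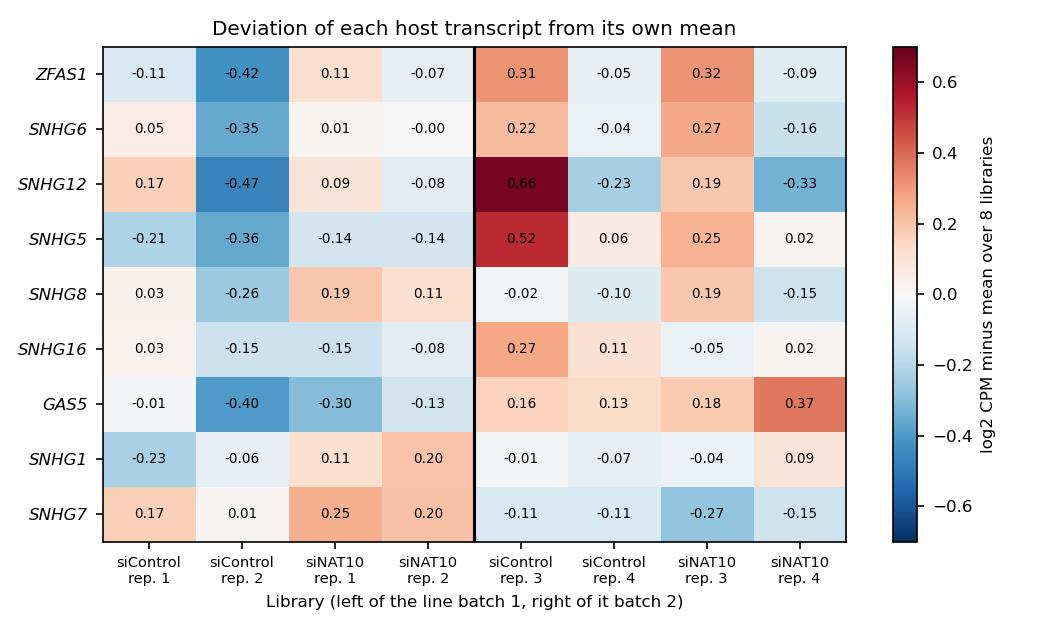
Deviation of each tested host gene's log2 CPM from its own mean over the 8 libraries, with libraries as columns and genes as rows ordered by likeness. siControl replicate 2 is below the mean for every gene except SNHG7, and SNHG12 (0.66) and SNHG5 (0.52) are highest in siControl replicate 3.

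Genes outside the 10 that share their build or their handling were examined as lists. Of 21 other non-coding snoRNA hosts, 17 were tested and edgeR called 0 for NAT10 knockdown, with 2 at an unadjusted p under 0.05 and a median log2 fold change of 0.07. DESeq2 also called 0. Those 2 were SNHG21 (0.53, adjusted p = 0.14 in edgeR) and SNHG25 (0.24, adjusted p = 0.24). For batch, 8 of these 17 were called, beside 25.3% of all genes, 5 higher and 3 lower in batch 2, led by SNHG17 at 0.70 (adjusted p = 6.5e-04 in edgeR). Of the protein-coding hosts outside the ribosome, 28 of 31 were tested and edgeR and DESeq2 each called 0, with 2 at an unadjusted p under 0.05 in edgeR. Those were TAF1D, a subunit of the RNA polymerase I initiation factor (0.34, adjusted p = 0.17 in edgeR), and EIF4G1, the translation initiation scaffold (0.49, adjusted p = 0.20). Among ribosomal protein genes that host snoRNAs, 25 of 26 were tested, edgeR and DESeq2 each called 0, and 0 had an unadjusted p under 0.05 in edgeR. Of these 25, 21 values were below 0, beside 6968 of all 13840 genes, with a median log2 fold change of -0.09. The lowest p in edgeR belonged to RPS20 (-0.21, adjusted p = 0.32) and RPL37 (-0.18, adjusted p = 0.42). Levels within the lists of protein-coding hosts were uneven. In siControl, RPL3 averaged 3.10 CPM, RPS2 2.26 CPM and RPL17 1.93 CPM, beside 2378 CPM for RPL5. Outside the ribosome, EIF4A1 averaged 4.53 CPM and HSPA8 4.83 CPM in siControl. Why these were low was not tested, and the counts and medians of both lists include them.
The proteins that bind snoRNAs followed. Of the box C/D core and assembly factors, 10 of 12 were tested and edgeR called 0. The assembly factor RPAP3 was the 1 gene at an unadjusted p under 0.05 (0.57, adjusted p = 0.079 in edgeR). RPAP3 was also the 1 gene DESeq2 called there, beside 601 over all genes. The core protein NOP56 was at -0.23 (adjusted p = 0.43 in edgeR). Of the box H/ACA factors, 5 of 6 were tested, edgeR and DESeq2 each called 0, and 0 had an unadjusted p under 0.05 in edgeR, with the pseudouridine synthase DKC1 at 0.14 (adjusted p = 0.63) and its assembly factor SHQ1 at 0.09 (adjusted p = 0.78).

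The decay machinery held 1 called gene, and it was UPF1. Of 22 listed nonsense-mediated decay and exon junction factors, 20 were tested, 0 rose and 1 fell, against 2.28% of all genes called. The 20 had 16 values above 0, beside 6872 of all 13840 genes, and a median log2 fold change of 0.16. An unadjusted p under 0.05 in edgeR was reached by 5 of the 20, 4 of them higher, beside 15.7% of all genes. DESeq2 called 2 higher (PNRC2 and MAGOHB) and 1 lower (UPF1), beside 601 over all genes. UPF1 (ENSG00000005007, chr19:18831959-18868230, plus strand), the helicase without which this decay does not run, was at 159.6, 192, 217 and 225 CPM in siControl and at 123.5, 115.5, 165 and 174 CPM in siNAT10. The groups overlapped over all libraries, but inside each batch both siNAT10 libraries were below both siControl libraries. The log2 fold change was -0.47 (SE 0.10, interval -0.68 to -0.26, adjusted p = 0.022 in edgeR), -0.55 in batch 1 alone and -0.38 in batch 2 alone.
The UPF1 call was lost without siControl replicate 1 (adjusted p = 0.051), siControl replicate 2 (0.092), siNAT10 replicate 1 (0.072), siNAT10 replicate 2 (0.11) or siNAT10 replicate 3 (0.065) in edgeR, with log2 fold changes from -0.50 to -0.39 over all libraries left out. Without the batch term its adjusted p was 0.47. Of 10 protein-coding transcripts known as targets of this decay, all were tested, edgeR and DESeq2 each called 0, and 0 had an unadjusted p under 0.05 in edgeR, with a median of -0.11. The lowest p among them belonged to GADD45A, a stress-induced gene (0.19, adjusted p = 0.44), and ATF3, a stress transcription factor (-0.25, adjusted p = 0.54).

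**Figure D5:**
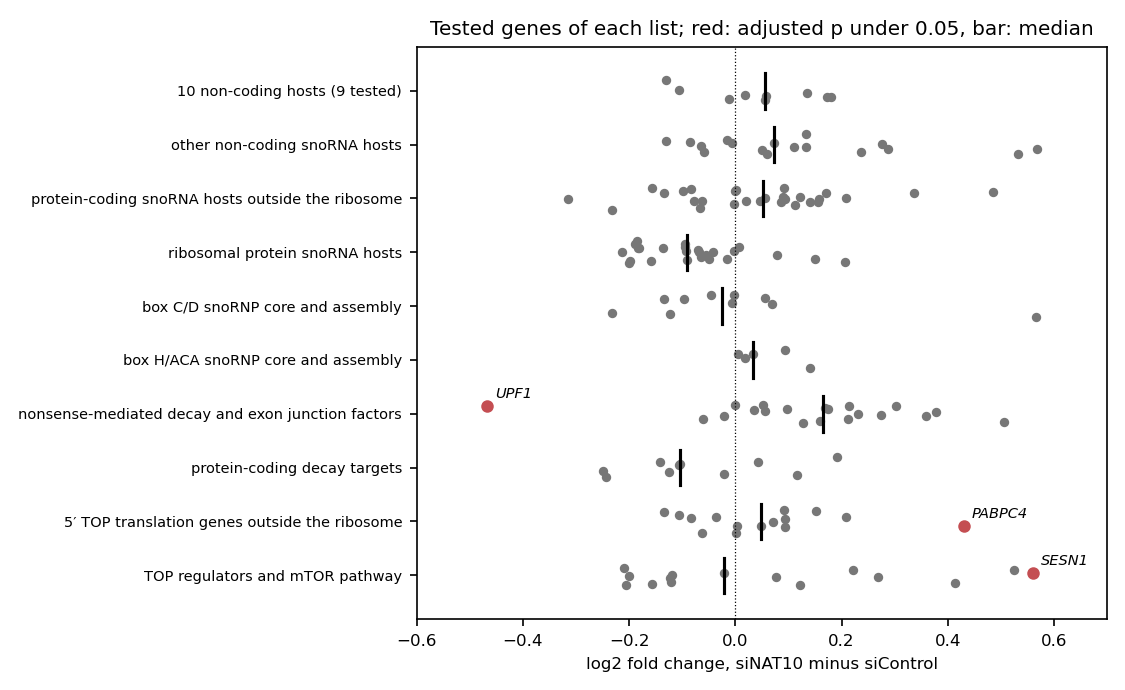
Fitted log2 fold changes of siNAT10 over siControl for the tested genes of the 10 lists of hosts, snoRNA-binding proteins, decay and translation, one point per gene, with list medians and called genes marked. Called genes in these lists are UPF1 (-0.47), PABPC4 (0.43) and SESN1 (0.56), and the points of the 9 host genes stay between -0.13 and 0.18.

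Translation genes that share the TOP start gave 1 call. Of 18 such genes outside the ribosome, 15 were tested, and 1 rose and 0 fell in both edgeR and DESeq2. Over all 13840 genes, edgeR called 2.28% and DESeq2 called 601 genes. The median log2 fold change of the 15 was 0.05. PABPC4 (ENSG00000090621, chr1:39560709-39576790, minus strand), a cytoplasmic poly(A)-binding protein, was at 72.8, 88.6, 87.0 and 97.8 CPM in siControl and at 102.6, 113, 114 and 137 CPM in siNAT10. Its groups did not overlap, and the log2 fold change was 0.43 (SE 0.11, adjusted p = 0.042 in edgeR). This call was lost with any single library left out, with adjusted p from 0.052 to 0.16 and log2 fold changes from 0.38 to 0.50, and without the batch term (adjusted p = 0.38). Of 15 genes of the mTOR pathway and its TOP regulators, all were tested. In edgeR 1 rose and 0 fell, beside 2.28% of all genes called, with a median of -0.02. DESeq2 called 2 higher there, SESN1 and RPS6KB1. The gene that rose in edgeR was SESN1, a stress-induced inhibitor of mTOR complex signalling (log2 fold change 0.56, SE 0.12, adjusted p = 0.021 in edgeR). It was at 18.6, 19.3, 18.2 and 23.0 CPM in siControl and at 27.7, 32.7, 26.5 and 29.1 CPM in siNAT10. The SESN1 call was lost without siControl replicate 1 (0.10), siControl replicate 2 (0.077), siNAT10 replicate 1 (0.053), siNAT10 replicate 2 (0.10) or the batch term (0.24), given as adjusted p in edgeR.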

How the data were processed

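Polyadenylated RNA from 8 HepG2 libraries was read at its 3′ ends. The authors deposited whole-number counts per Ensembl gene, made with STAR 2.7.9a on GRCh38 and featureCounts after Trim Galore 0.6.10 with cutadapt 3.5, per the labels and the submitters' processing notes. Which gene models were counted, whether strand was used, and how reads on several genes were treated are not given in the sources used here, and the kit's orientation is stated in 2 ways. Overlapping genes can therefore have lost or gained reads. Besides SNHG12, the last exons of SNHG6, SNHG7, SNHG8 and ZFAS1 lie opposite exons of other genes, which had at most 32 counts in a library.

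Symbols, coordinates and transcripts came from GENCODE 44 on GRCh38, which matched 61458 of the 86369 identifiers. Unmatched ones, kept in the fits, held 1.27% to 1.65% of the counts. Starts came from RefSeq and were read for 8 of the 10 host genes, with SNHG6 and SNHG15 left out.

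Tests used edgeR 4.0.16 under R 4.3.3: filterByExpr (minimum count 10), TMM, and the quasi-likelihood F test with batch and siRNA as terms. Calls needed a Benjamini-Hochberg adjusted p under 0.05 over all 13840 genes. Intervals are 95% from the same fit. The procedure was tested on simulated data. The host genes and the lists, written from general knowledge, were chosen with earlier results of these data known. Named genes were NAT10, the host genes, and for each list its called genes (at most 3 in each direction) or, with none, the 2 with the lowest p. EIF4A3, ALB, PNRC2, MAGOHB and RPS6KB1 were named after their values were seen. So were the hosts named for a batch difference or for their level, and the genes opposite last exons.

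Same-numbered libraries of both groups deviated together after the group mean alone was removed (correlations across genes of 0.39, 0.38, 0.45 and 0.36). They also share a batch, so these correlations cannot tell pairing by number from the batch difference. A model blocked on that number was tried all the same. Other alternatives were no batch term, DESeq2 1.42.0, RLE size factors, library size alone, no low-count filter, a minimum mean of 10 counts, either batch by itself and each library left out. Alternatives for the batch differences and for UPF1, PABPC4 and SESN1 were added after the data had been seen. Between libraries sharing siRNA and batch, chi-square per degree of freedom over genes was 15.7 to 26.8. These pairs thus differed by more than the sampling of reads gives. That cannot tell libraries of separate cultures from libraries of the same culture or RNA.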

Additional observations from a re-analysis of the deposited data

How the results depend on the processing

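The number of host genes called for NAT10 knockdown was 0 in all 17 alternatives. The number of all genes called, 315, became 15 without the batch term, 601 with DESeq2, 595 with no low-count filter, 173 in batch 1 alone and 0 in batch 2 alone, and ranged from 75 to 286 with a library left out. With the replicate block, 454 genes and 0 host genes were called, and the block changed no call of a host gene. For the interaction of batch and siRNA, 0 genes became 1 with DESeq2 and 15 with no low-count filter, and 0 to 2 with a library left out (2 without siControl replicate 4). Signs of small log2 fold changes turned, each far from the threshold and with its cause not tested: SNHG5 to 0.029 with library size alone, which moved the median of all genes by 0.040. In batch 1 alone SNHG5 was 0.15, SNHG12 0.12 and GAS5 -0.020, and in batch 2 alone SNHG6 was -0.024, SNHG7 -0.098 and ZFAS1 -0.0098. With a library left out, SNHG6 ranged from -0.030 to 0.16, SNHG7 from -0.034 to 0.075, SNHG5 from -0.071 to 0.13 and SNHG12 from -0.26 to 0.15. The batch differences then ranged from -0.11 to 0.047 for SNHG8, from -0.073 to 0.044 for SNHG1 and from -0.077 to 0.32 for SNHG12. SNHG1, SNHG8 and SNHG16 kept the sign of their knockdown value in all 17 alternatives. SNHG15 had at most 3 counts in a library, the cause was not tested, and no change is stated for it.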

Other observations

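The other non-coding snoRNA hosts gave 8 batch calls among the 17 tested, beside 25.3% of all genes. In edgeR, SNHG17 (37.4 ± 3.61 CPM in batch 1 and 60.7 ± 9.57 CPM in batch 2, SD, n = 4 libraries each), SNHG11 (13.0 ± 0.594 and 20.2 ± 2.91 CPM), SNHG21, SNHG26 and SNHG10 were higher in batch 2. SNHG25 (741 ± 59.5 and 516 ± 66.3 CPM), SNHG29 and SNHG3 (46.4 ± 1.99 and 37.0 ± 4.84 CPM) were lower. All 4 libraries of batch 2 lay above all 4 of batch 1 for SNHG17, SNHG11 and SNHG26, and below them for SNHG25, SNHG29 and SNHG3. SNHG21 and SNHG10 overlapped between batches. Without a count of all genes that lacked overlap between batches, these separations are given as descriptions only.

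Among 8450 other genes with a symbol and a mean of at least 8 CPM, 5 followed the average of the 9 host genes most closely over the 8 libraries. They were SKIC8 (Pearson's r = 0.97), UBE2V2 (0.95), UBAP2L (0.95), ZBED5 (0.94) and ISCU (0.94). None of the 5 was called for NAT10 knockdown (adjusted p from 0.63 to 0.93 in edgeR) or for batch (0.12 to 0.35). The 8 libraries differ in batch, siRNA and depth. The likeness was also chosen as the highest among all these genes, so it is given as a description.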
